A study of Danio rerio with 6 samples.

Results

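Most energy in animal cells comes from a chain of protein complexes in the inner mitochondrial membrane, and the nuclear genes that encode its parts were followed here in sorted cells of zebrafish embryos. Gene symbols beginning with nduf, uqcr, cox4 to cox8 or atp5 were taken from the count table, whatever their letter case, and 93 of its 29361 symbols matched. Of these, 91 held at least 10 reads summed over the 6 libraries and form the set described, 80 written in lower case and 11 in capitals. They comprise 46 genes named for complex I, 7 for complex III, 18 for complex IV and 20 for complex V. Those of complex I include 7 assembly factor genes and, by name, ndufa4 and ndufa4l2. Among those of complex V, atp5s and ATP5SL are not subunit genes. All of these stay in the counts, sums and medians of the complex they are named for. The pair left out were NDUFA4L2_(1_of_2), with 9 reads, and ATP5J_(3_of_4), with 6 reads, while ndufs8b was just inside the limit with 15 reads, all of them in mutant 2.

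Complex I (NADH dehydrogenase) takes electrons from NADH, complex III (the cytochrome bc1 complex) passes them from ubiquinol to cytochrome c, and complex IV (cytochrome c oxidase) hands them to oxygen. The protons pumped on the way drive complex V, the ATP synthase. The catalytic core of these complexes is partly encoded in mitochondrial DNA, and the nucleus supplies the remaining core proteins together with many supernumerary subunits that surround and stabilise the core. Several complex IV subunits exist as paired isoforms that differ between tissues or with oxygen supply in mammals.

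The 6 libraries hold RNA, amplified before sequencing, from cells of embryos at 48 hours after fertilisation. All fish carried the transgene kdrl eGFP, a green fluorescent reporter under an endothelial promoter. Wild-type embryos gave 3 libraries and embryos labelled mafba uq4bh mutant gave 3, mafba being a gene for a large Maf transcription factor. Age, reporter and source were the same for both groups, and whether libraries of a group stem from different pools of embryos is not stated, so the p-values reflect only how far these libraries vary, which may be technical.

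Reads on genes numbered 43859736 to 52923490 per library. The RNA of mafba stood at 32.9 to 45.8 CPM, reads scaled to a common library size, in the wild-type and 31.0 to 39.6 CPM in the mutant libraries, so it did not separate the groups, and where the lesion lies in the gene is not stated in the labels. Endothelial markers were present, 19 of 20 listed genes being found in the files at a sum of 804 to 1236 CPM (wild-type) and 715 to 1086 CPM (mutant), with 0 of the 19 at 0 reads. The labels call the cells purified endothelial cells, although their protocol also speaks of brains and of a pdgfr beta reporter. Skeletal muscle markers, which a pure endothelial sort should lack, summed to 3371 to 9941 CPM and 3201 to 6845 CPM in the same groups (25 of 26 listed genes found, 0 at 0 reads). Markers of epidermis (7788 to 10772 and 8749 to 12726 CPM) and of neutrophils (6528 to 10733 and 6488 to 16222 CPM) summed to more than those of muscle in every library. Macrophage, neural, heart and pigment markers summed to less than the endothelial ones. Those of erythrocytes (2462 to 3328 and 1637 to 4233 CPM) summed to more than the endothelial ones in every library. So did those of mural and mesenchymal cells (1042 to 1259 and 1103 to 1505 CPM) and the ionocyte markers given below. In mixed samples of this kind, fewer cells of a type and less RNA per cell cannot be told apart.

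Together the 91 genes took 1.15% to 1.43% of all reads on genes. In CPM, scaled for each library with TMM factors, complex I summed to 3479, 2749 and 3134 in wild-type 1, 2 and 3 and to 3195, 3301 and 2445 in mutant 1, 2 and 3. Complex III summed to 977, 795 and 889 CPM against 871, 876 and 762 CPM, wild-type first. These sums lack the subunit gene cyc1, whose symbol was not among those taken. Complex IV gave 2804, 2388 and 2457 CPM against 2543, 2785 and 1914 CPM, and complex V 7527, 5784 and 6580 CPM against 6425, 6862 and 5557 CPM. In all 4 complexes wild-type 1 had the highest of these scaled sums, mutant 3 the lowest, and the groups overlapped. As shares of all reads on genes, without TMM factors, mutant 3 was lowest only for complex IV, at 0.213%. Wild-type 2 was then lowest for complex I (0.269%, mutant 3 0.272%), complex III (0.0778%, mutant 3 0.0847%) and complex V (0.566%, mutant 3 0.618%). Transcript lengths are not part of the sources used here, so these sums count reads and do not rank the complexes by molecules.

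**Figure D1:**
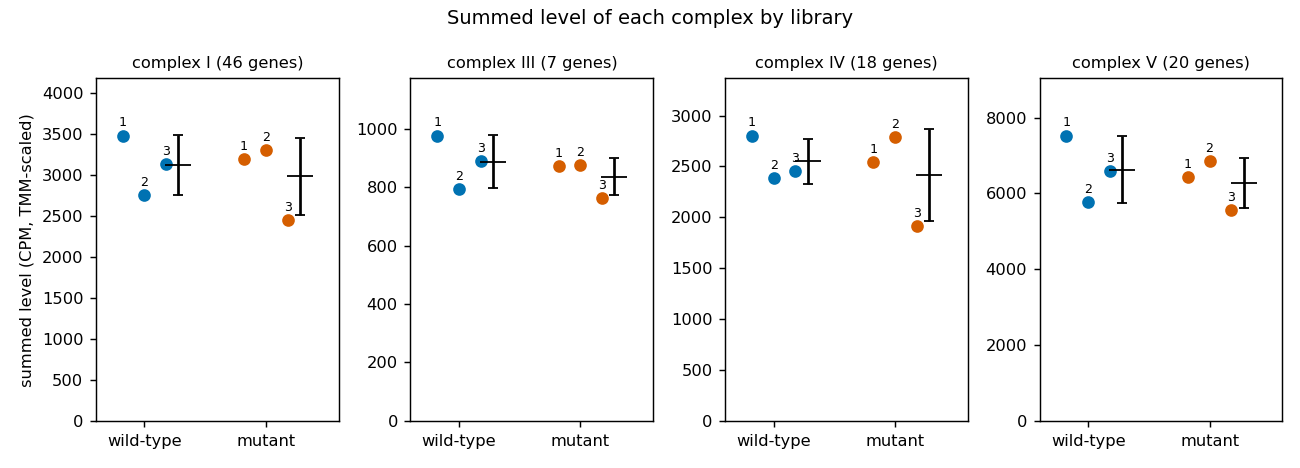
Summed level of each complex in TMM-scaled CPM (vertical axes from 0) for the wild-type (blue) and mutant (orange) libraries, numbered by replicate. The mean and SD of the 3 libraries are in black. In each panel mutant 3 is the lowest point and wild-type 1 the highest, and the groups overlap.

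As means, complex I stood at 3121 ± 365 CPM (wild-type) and 2980 ± 466 CPM (mutant; SD, n = 3), a ratio of 0.955. Complex III stood at 887 ± 91.1 and 837 ± 64.7 CPM (ratio 0.943), complex IV at 2549 ± 223 and 2414 ± 449.8 CPM (ratio 0.947), and complex V at 6630.1 ± 873 and 6281 ± 664 CPM (ratio 0.947). Each difference was smaller than the SD within either group. The proportions between complexes overlapped as well. Reads of complex V came to 2.12 ± 0.0358 times those of complex I in the wild-type group and 2.12 ± 0.136 times in the mutant group. For complex IV the proportion to complex I was 0.819 ± 0.0440 and 0.807 ± 0.0321, and for complex III 0.285 ± 0.00421 and 0.283 ± 0.0248 (SD, n = 3).

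No member passed when the genotypes were compared. With edgeR's quasi-likelihood test and p-values adjusted by Benjamini and Hochberg's method over the 19381 genes that passed a filter on low counts, the comparison called 0 of the 90 tested members at an adjusted p under 0.05, where the share of all tested genes called was 0%. At an unadjusted p under 0.05 stood 1 member, with 1.57% of all tested genes, and DESeq2 and limma-voom also called 0 members with 1 each at that unadjusted level. The untested member was ndufs8b. The 95% confidence interval of the log2 difference included 0 for 89 of the 90, and for 76 it lay entirely between 0.5 and 2 times the wild-type level. The median interval reached 1.34-fold to either side, against 1.76-fold over all tested genes, many of which have few reads. Over tested genes with a mean of at least 10 CPM it was 1.40-fold, close to that of the members.

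**Figure D2:**
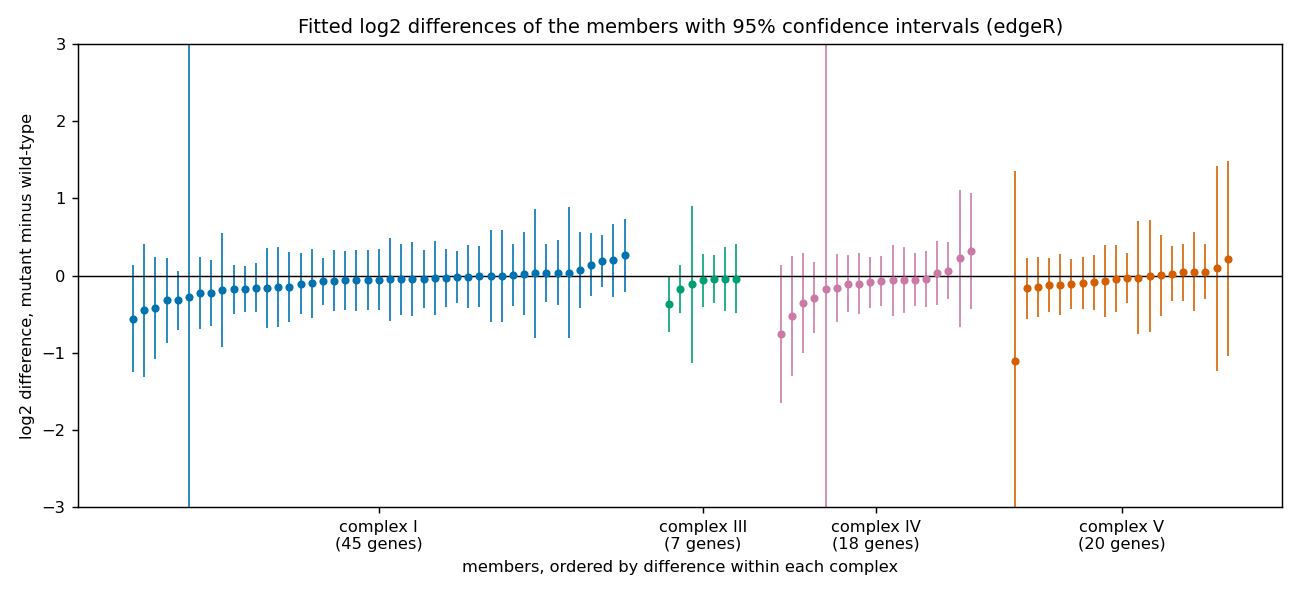
Log2 difference, mutant minus wild-type, of each tested member (points) with its 95% confidence interval (lines) from edgeR, ordered by value within each complex. All intervals but that of uqcrfs1 in complex III cross 0, and the intervals of ndufa4l2, COX5B_(1_of_3) and ATP5J2 run past the axis limits.

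The fitted values leaned to the lower side, and that lean rested on particular libraries. Of the 90 tested members 68 were fitted lower in the mutant (75.6%) and 22 higher, where 50.7% of all tested genes were fitted lower and 49.3% higher. Without mutant 3 only 29 were fitted lower, and without wild-type 1 only 36. The median log2 difference was -0.05 over the 45 tested members of complex I, -0.06 over 7 of complex III, -0.08 over 18 of complex IV and -0.03 over 20 of complex V, beside -0.0047 over all tested genes. Without mutant 3 these medians became 0.09 for complex I, 0.04 for complex IV and 0.09 for complex V, while that of complex III stayed below 0 at -0.03. The groups did not overlap for 4 members, all lower in the mutant (4.44% of members, 3.36% of all tested genes), and for 0 in the other direction (3.38% of all tested genes). The 4 were uqcrfs1, NDUFB2, ndufs7 and ndufaf2.

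The core subunits of complex I carry its flavin and iron-sulphur clusters. The member of complex I with most reads was ndufv1, whose product holds the site where NADH is oxidised, with 267, 224 and 263 CPM in wild-type 1 to 3 and 228, 228 and 212 CPM in mutant 1 to 3. Wild-type 2 lay below mutant 1 and mutant 2, so the groups overlapped, and the log2 difference of -0.17 ± 0.14 (SE) did not pass. For ndufs1, an iron-sulphur subunit, the levels were 252, 156 and 233 against 197, 203 and 216 CPM, so that wild-type 2 alone lay below all mutant libraries, with a log2 difference of -0.06 ± 0.18. In ndufs7, a gene for a subunit that holds an iron-sulphur cluster near the quinone site, levels of 106, 90.4 and 91.4 CPM in wild-type were above the 90.2, 84.6 and 80.5 CPM of the mutant libraries. The nearest libraries, wild-type 2 and mutant 1, were almost level, and the log2 difference was -0.17 ± 0.15.

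Of the 27 tested supernumerary subunits of complex I, 19 were fitted lower and 8 higher, with a median log2 difference of -0.03. The smallest p among all complex I members was that of NDUFB2, a small membrane-arm subunit, with 67.1, 65.0 and 66.4 CPM against 53.9, 63.1 and 42.1 CPM (wild-type first). Its wild-type libraries lay close together and its mutant libraries apart, with mutant 2 nearly at the wild-type level, and the log2 difference of -0.32 ± 0.18 did not pass. The 2 acyl carrier protein genes, ndufab1a and ndufab1b, whose product serves mitochondrial fatty acid synthesis as well as complex I, were fitted at -0.05 and -0.06. Of 7 assembly factor genes, whose products help to build the complex without staying in it, 5 were fitted lower and 2 higher (median -0.18). The one with the smallest p was ndufaf2, with 7.64, 9.87 and 8.17 CPM against 6.61, 5.44 and 5.39 CPM. All its mutant libraries lay below all wild-type libraries, with a log2 difference of -0.56 ± 0.32 that did not pass.

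In complex III the lowest unadjusted p of the whole set was found, in uqcrfs1, the gene of the Rieske iron-sulphur protein that hands electrons on towards cytochrome c. Its wild-type levels were 55.8, 48.1 and 45.7 CPM and its mutant levels 40.4, 39.2 and 36.3 CPM, the means being 49.9 ± 5.30 and 38.6 ± 2.12 CPM (SD, n = 3). All mutant libraries lay below all wild-type libraries. The log2 difference of -0.37 ± 0.17 (SE) had a 95% interval from -0.73 to -0.0032 and an unadjusted p of 0.0483 in edgeR, but an adjusted p of 1.00. With each library left out in turn it ranged from -0.43 to -0.28. The core protein genes uqcrc1, uqcrc2a and uqcrc2b were fitted at -0.04 ± 0.14, -0.17 ± 0.14 and -0.06 ± 0.16. The small subunit gene uqcrb had only 2.12 to 5.36 CPM in any library, while uqcrh, whose product is the hinge protein, and uqcrq had 66.3 to 171 CPM.

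Complex IV offers pairs of isoforms, whose relative use within a library can be followed between libraries without knowing their lengths. The main subunit 4 gene, cox4i1, stood at 381, 340 and 329 CPM against 346, 405 and 267 CPM (log2 difference -0.04 ± 0.17). Its partner cox4i2, the isoform tied to low oxygen in mammals, took 1.80%, 2.40% and 1.28% of the reads of the pair in wild-type 1 to 3 and 2.49%, 1.83% and 2.93% in mutant 1 to 3. The counting interval of a share was narrow, from 1.12% to 1.45% in wild-type 3 (95%, Wilson), yet the groups overlapped, with means of 1.83% ± 0.563 and 2.42% ± 0.553 (SD, n = 3).

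The isoforms of heart and skeletal muscle in mammals are cox6a2, cox7a1 and cox8b. In the pair with cox6a1, cox6a2 took 7.12%, 4.94% and 5.76% of reads (wild-type) against 5.58%, 4.90% and 4.12% (mutant). In the pair with cox7a2a, cox7a1 took 8.71%, 6.04% and 7.85% against 3.67%, 6.18% and 5.81%, in the same order, with means of 7.54% ± 1.36 and 5.22% ± 1.35 (SD, n = 3), and its level of 11.2, 6.69 and 8.88 CPM against 4.70, 8.52 and 5.37 CPM gave a log2 difference of -0.53 ± 0.36. The share of cox8b against cox8a was 3.30%, 1.34% and 2.47%, then 3.36%, 3.16% and 2.23% for the mutant. In all 3 pairs the groups overlapped. The muscle markers were at their highest in wild-type 2, at 9941 CPM, where each of the 3 muscle isoforms had its lowest share among the wild-type libraries. Among the mutant libraries these markers were highest in mutant 2, at 6845 CPM, where only cox7a1 had its highest share. They were lowest in mutant 3, at 3201 CPM, where cox6a2 and cox8b had their lowest shares. The part of muscle cells in these shares was not tested.

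**Figure D3:**
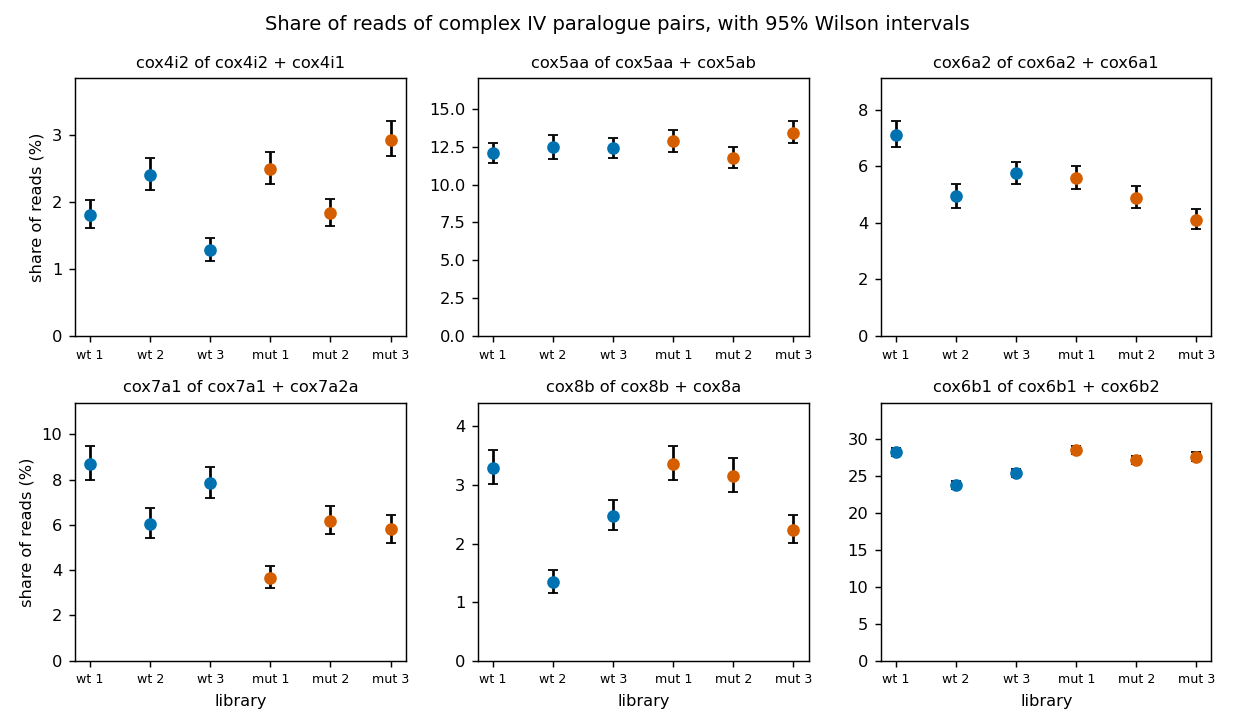
Share of the reads of a complex IV gene pair that fell on the first-named gene, in percent (vertical axes from 0), for the wild-type (blue) and mutant (orange) libraries, with 95% Wilson intervals, which cover counting error only. The groups overlap in each of the 6 pairs, and the share of cox5aa stays between 11.8% and 13.4%.

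In the other complex IV pairs the groups overlapped too. The share of cox5aa against cox5ab ran only from 11.8% to 13.4%, with means of 12.3% ± 0.222 (wild-type) and 12.7% ± 0.843 (mutant), and that of cox6b1 against cox6b2 was 25.8% ± 2.28 and 27.7% ± 0.680 (SD, n = 3). Most reads of any complex IV member fell on COX5B_(2_of_3), a gene for the zinc-binding subunit 5b, with 423, 351 and 387 CPM against 383, 402 and 319 CPM (log2 difference -0.07 ± 0.15), followed by cox6b2 at 392, 379 and 369 against 392, 414 and 255 CPM (-0.10 ± 0.18). The related subunit 5b gene cox5b2 had 7.97, 4.76 and 7.24 CPM against 3.00, 5.67 and 3.16 CPM, overlapping through mutant 2, with a log2 difference of -0.76 ± 0.41, and COX5B_(1_of_3) had 78 reads in all. Genes with close copies may share or lose reads in the authors' counting, which left out 8533925 to 12394771 reads per library that aligned to several places. The gene ndufa4, named for complex I but placed by later work in complex IV, had 60.4, 39.6 and 35.2 CPM against 43.4, 39.4 and 18.3 CPM, with mutant 3 far below the rest (log2 difference -0.42 ± 0.30, or -0.12 without mutant 3). Its relative ndufa4l2, a hypoxia-induced gene in mammals, had 0 to 76 reads per library.

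In complex V the subunits alpha and beta form the catalytic head of the F1 part. The beta subunit gene ATP5B, now called atp5f1b, stood at 1984, 1398 and 1720 CPM against 1578, 1679 and 1555 CPM, wild-type first, and the alpha subunit gene atp5a1 at 1591, 1186 and 1429.6 against 1304, 1345 and 1291 CPM. In both genes the 3 mutant libraries lay inside the range of the wild-type libraries and close to each other, with log2 differences of -0.08 ± 0.16 and -0.09 ± 0.16. Together they held 44.1% to 51.2% of the reads of complex V, most in mutant 3. The c-ring of the Fo part, which turns as protons pass, is encoded by atp5g1, atp5g3a and atp5g3b, which had 17.8% to 19.6% of those reads in every library. For atp5g3b the levels were 745, 574 and 639 against 634, 644 and 518 CPM (-0.12 ± 0.16). Against atp5g3b, the share of atp5g1 was 32.2% ± 2.27 and 32.3% ± 0.246, and that of atp5g3a 29.3% ± 1.33 and 30.7% ± 1.29 (SD, n = 3). The smallest p values of complex V belonged to ATP5J2, a gene for the small subunit f with 0 to 3.13 CPM, at -1.10 ± 1.13, and to atp5l, the subunit g gene, at -0.17 ± 0.18.

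The clearest pattern among the members ran between libraries and not between genotypes. Mutant 3 was the lowest of the 6 libraries for 63 of the 90 tested members (70.0%), against 11.7% of all tested genes. Wild-type 2 was lowest for 19 members (22.5% of all tested genes). The members had a median of 72.1 CPM, against 7.55 CPM over all tested genes. Among tested genes with a mean of at least 10 CPM, mutant 3 was lowest for 16.2% and wild-type 2 for 23.3%. Wild-type 1 was the highest library for 46 members, with 15.7% of all tested genes. By contrast, wild-type 3 was lowest for 2 members (14% of all tested genes), wild-type 2 highest for 3 (20.1%) and mutant 3 highest for 2 (14%). Within its own genotype mutant 3 lay below both other libraries for 79 of 90 members, against 6149 of all 19381 tested genes. Of the 8663 tested genes with a mean of at least 10 CPM it did so for 3485. Wild-type 2 likewise lay below both other wild-type libraries for 60 of 90 members. It did so for 6926 of all tested genes and 3398 of those with at least 10 CPM. Library totals without scaling factors put mutant 3 lowest for 43 members against 6.34% of all tested genes, because that scaling raises the median of all genes in mutant 3 by 0.18 log2 units, and put wild-type 2 lowest for 33 members against 24.0% of all tested genes. Relative to the median of all tested genes, the members' median in mutant 3 against the mean of the other 5 libraries was -0.51 log2 units. A scaling factor cannot change that value because it shifts all genes of a library alike. Before that step the members' median was -0.42, beside 0.09 for all tested genes. Tested genes with a mean of at least 10 CPM stood at -0.01, so the members lay less far from these. Mutant 3 also had the most reads on genes (52923490) and the most genes with any read (21098, others 19230 to 20305). Its TMM factor was the largest (1.11, others 0.94 to 1.06). The part of these traits in its low values was not tested.

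**Figure D4:**
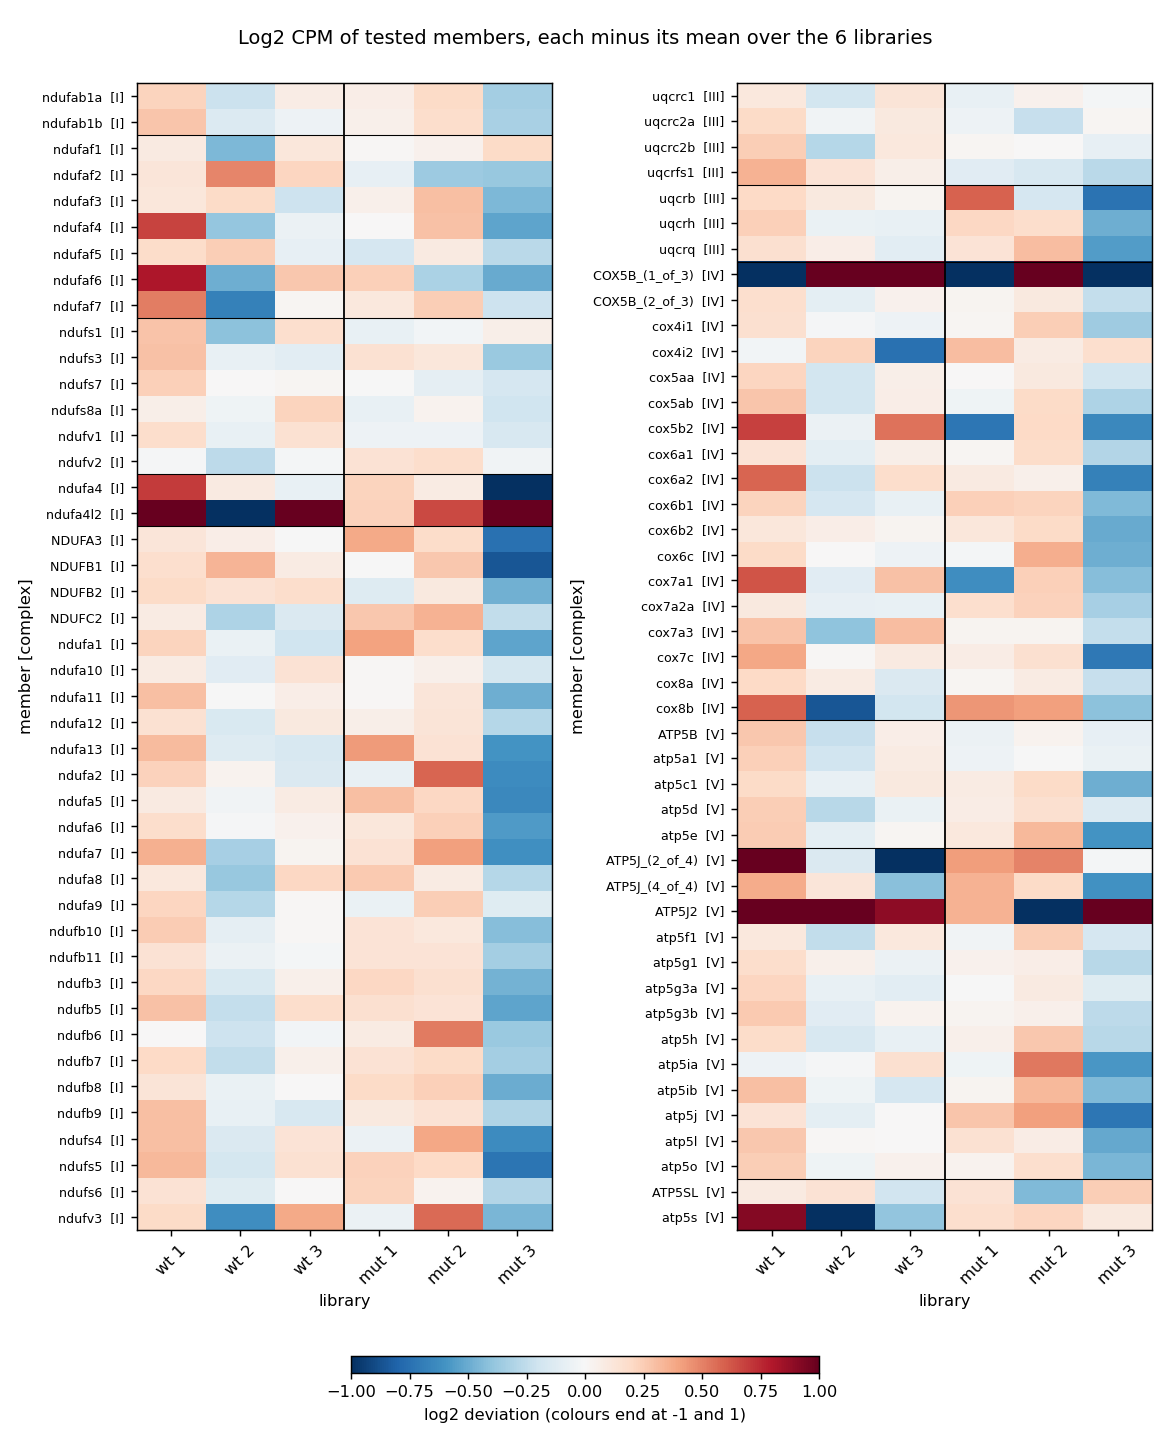
Log2 CPM of the tested members but 1, each minus its mean over the 6 libraries, from blue (lower) to red (higher), with lines between the classes of each complex and a line between wild-type and mutant libraries. Mutant 3 is the lowest library for 63 of all 90 tested members, and the rows with the strongest colours, such as COX5B_(1_of_3), ndufa4l2 and ATP5J2, are members with few reads.

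The low values of mutant 3 were not spread evenly over the classes of subunits. Against the mean of the other 5 libraries, the 27 supernumerary subunits of complex I had a median log2 difference of -0.58 in mutant 3, from -1.03 for NDUFB1 to -0.15 for ndufa9, and mutant 3 was the lowest library for 23 of them. The 7 tested core subunits of complex I had a median of -0.19, from -0.45 for ndufs3 to 0.07 for ndufs1. In complex III the 4 core and Rieske genes had a median of -0.06 and the 3 small subunits one of -0.67. In complex V the values were -0.08 for atp5a1 and -0.10 for ATP5B. They were -0.59 for atp5c1 and -0.72 for atp5e, the gamma and epsilon subunit genes of the same F1 part. The delta subunit gene atp5d lay between at -0.16, which was the median of the 5 F1 genes. The 13 Fo and stalk genes had a median of -0.33. The median of complex IV was -0.46. These are values of 1 library, so the difference between classes has no replicate and was not tested. The genes of cytosolic ribosomal proteins moved the same way, with a median of -0.65 and mutant 3 lowest for 79 of 80. So did the protein genes of mitochondrial DNA, with a median of -0.34 and mutant 3 lowest for 10 of 13.

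**Figure D5:**
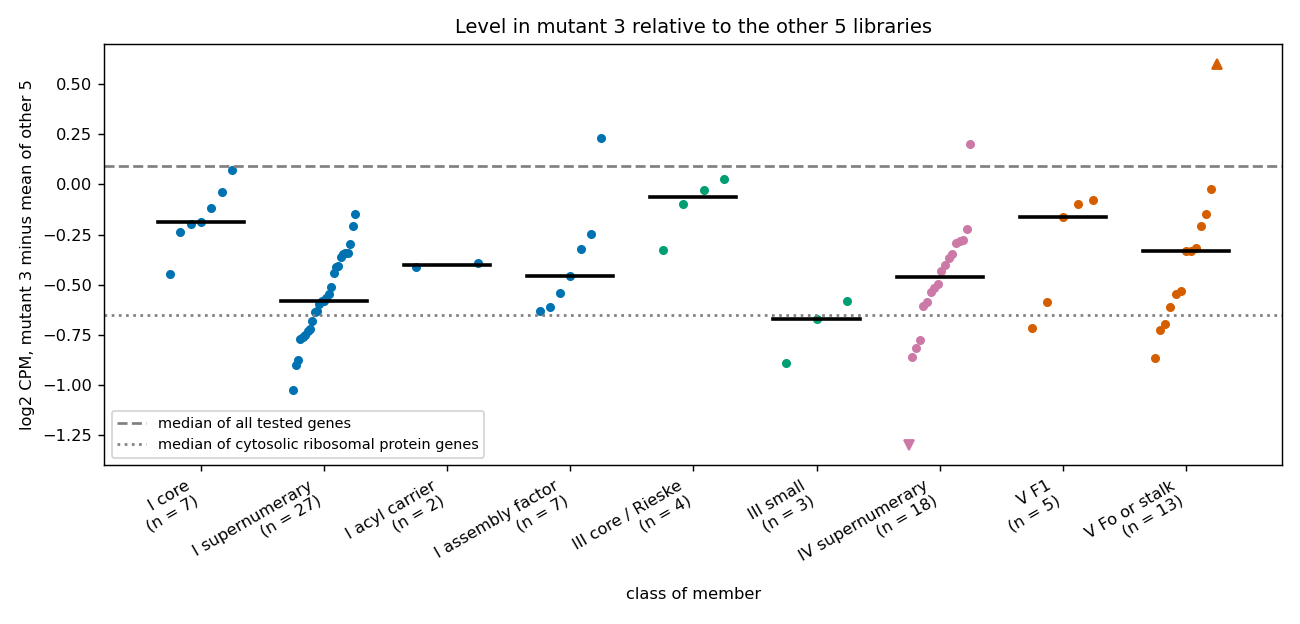
Log2 CPM in mutant 3 minus the mean of the other 5 libraries (vertical axis) for tested members by class (points) with class medians (bars). The members ndufa4, ndufa4l2, atp5s and ATP5SL are not drawn. Triangles stand for COX5B_(1_of_3) and ATP5J2, which lie beyond the axis. Most core genes of complexes I and III lie nearer the median of all tested genes (dashed), and most supernumerary and small subunits nearer that of cytosolic ribosomal protein genes (dotted).

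Members also differed in how steady they were. The median SD of log2 CPM over the 6 libraries was 0.155 for core subunits of complex I and 0.162 for core and Rieske genes of complex III. It was 0.277 for supernumerary subunits of complex I, 0.280 for complex IV and 0.255 for all tested genes with a mean of at least 10 CPM. These SDs include mutant 3. Its median log2 deviation from the mean of the 6 libraries was -0.16 for core and -0.48 for supernumerary subunits of complex I. The SDs are thus not separate from the low values of that library. How far the gap between classes rests on it was not tested. Among the steadiest were uqcrc1, with 256, 210 and 260 CPM against 226, 244 and 234 CPM (SD 0.116), and ndufa10 (SD 0.122), a matrix-side subunit of complex I.

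Some markers of cells rich in mitochondria were counted beside these values. Ionocyte markers (18 of 18 found, 0 at 0 reads) summed to 3347, 2356 and 2927 CPM against 2698, 2785 and 2886 CPM, wild-type first, and kidney markers (13 of 13 found, 0 at 0 reads) to 1156, 784 and 1148 against 914, 896 and 1093 CPM. Both were lowest in wild-type 2 and not in mutant 3. Skeletal muscle markers, also of a tissue rich in mitochondria, were lowest in mutant 3, with 6350, 9941 and 3371 CPM against 4857, 6845 and 3201 CPM. Endothelial markers were lowest in mutant 3 as well, with 1236, 900 and 804 CPM against 1053, 1086 and 715 CPM. The median log2 deviation in mutant 3 from the mean of the 6 libraries was -0.64 for the muscle and -0.39 for the endothelial markers, beside -0.35 for the members. In wild-type 3 the same medians were -0.61, -0.30 and 0.03. The part of any of these cells in the levels of the members was not tested.

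Genes that work beside these complexes gave the same count of 0 calls (edgeR, adjusted over all tested genes). Complex II, the succinate dehydrogenase that feeds electrons from the citric acid cycle, is encoded wholly in the nucleus, and its listed genes summed to 547, 556 and 544 CPM against 486, 490.2 and 484 CPM, groups that did not overlap. With library totals in place of TMM factors they did overlap. Each listed gene on its own overlapped between the groups, and the list holds assembly factor genes as well as subunits. Of single tested genes, 3.36% did not overlap with the mutant lower. The sums of all other lists, markers included, overlapped, and the separation of this sum was not tested. Of its 7 tested genes 6 were fitted lower, with a median of -0.17, and the smallest p was that of sdhb, the iron-sulphur subunit gene, at 132 ± 12.1 and 102 ± 19.9 CPM (SD, n = 3) and a log2 difference of -0.37 ± 0.17 (SE), followed by the assembly factor gene sdhaf1 at -0.48 ± 0.50. The gene of the mobile carrier cytochrome c, cycsb, was fitted at -0.12 ± 0.18. Cytochrome c1, whose gene cyc1 was fitted at -0.08 ± 0.14, is itself a subunit of complex III. Its symbol was not among those taken, so the complex III values leave it out. Its means were 275 CPM (wild-type) and 260 CPM (mutant).

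Of 25 assembly factor genes for complexes III, IV and V, 15 were fitted lower and 10 higher (median -0.08), the smallest p being those of tmem70 (-0.53 ± 0.32) and cox14 (-0.48 ± 0.32). Of 13 protein genes of mitochondrial DNA 10 were lower and 3 higher (median -0.09), with mt-atp8 at 0.27 ± 0.24 and mt-co1 at -0.13 ± 0.19. The citric acid cycle list had 10 lower and 6 higher of 16 (median -0.02), with dldh at -0.20 ± 0.14 and idh3g at -0.23 ± 0.18. The list of carriers, pores and ATP synthase inhibitors had 6 lower and 2 higher of 8 (median -0.03), with slc25a4, an adenine nucleotide carrier gene, at -0.62 ± 0.31 and atpif1b at -0.22 ± 0.15. In the list of regulators of mitochondrial biogenesis 10 were lower and 8 higher of 18 (median -0.03), with the coactivator gene pprc1 at -0.37 ± 0.18 and tfam, which packages mitochondrial DNA, at 0.24 ± 0.19. Glycolysis, the route to ATP outside mitochondria, had 23 lower and 6 higher of 29 (median -0.15), with eno1a at -0.37 ± 0.16 and aldocb at -0.42 ± 0.18 (log2 differences ± SE). None of these genes passed, and 50.7% of all tested genes were fitted lower.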

How the data were processed

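Per the labels, RNA of sorted cells was amplified and sequenced. The values the authors deposited are raw read counts per gene symbol, and the series-wide table and the 6 single files gave identical values. The submitters' processing notes name bcl2fastq, STAR, HTSeq and the builds danRer7 and Zv9. Neither their versions nor the annotation or strand setting are stated, so overlapping and antisense genes cannot be told apart. The 5 summary rows, which held 22.1% to 28.1% of the counts summed over each file, were left out.

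The tools were DESeq2 1.42.0, limma 3.58.1 and edgeR 4.0.16 under R 4.3.3, with plots from Python 3.11.15 and matplotlib 3.10.9. The default filterByExpr filter, TMM factors and the robust quasi-likelihood test compared genotypes without a block, with Benjamini-Hochberg adjustment over all tested genes at a threshold of 0.05. The script was tested on simulated data. CPM is relative to the TMM-scaled library size. Log2 deviations between libraries add 0.5 reads to each count. Wilson intervals cover counting error only, as amplified reads are not independent molecules.

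Members, lists and tests were chosen with earlier results of these data known. Levels per kilobase of coding length had been planned, but no lengths were at hand, so levels are given in CPM and the order of the complexes was not computed. Promoter motifs were not analysed here. Named members are, in each complex, the 3 with most CPM (in place of CPM per kilobase) and the 2 with the smallest p, and the isoform pairs. The values of 1 member are not reported here, though it is in every count, sum and median. Others named, such as ndufs7, ndufa10, NDUFB1, uqcrh and uqcrq or the genes at the ends of a range, were chosen after their values were seen. From each list of related genes the 2 with the smallest p are named, and marker lists are given as sums. Of 316 list entries, 290 matched by symbol, 12 by a synonym in the RefSeq table of GRCz12tu and 14 had no match. The names of 85 of the 93 symbols were found in that table.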

Additional observations from a re-analysis of the deposited data

How the results depend on the processing

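At an adjusted p under 0.05, 0 members and 0 of all genes were called under every scaling, filter, tool and left-out library tried. The threshold of 0.10 was applied to the main fit only, where it called 0 as well. Among members the count at an unadjusted p under 0.05 ranged from 0 to 2 in these fits, and among all genes the lowest adjusted p was 0.0535. No complex's median or summed level moved by more than the spread between replicates, taken as the pooled SD within genotypes. Leaving out a single library can hardly move a value by that much, so this does not show that the values are stable. The median of each complex changed sign in some of the fits with a library left out. With each library left out in turn, the number of members fitted lower ranged from 29 to 80, and the medians ranged from -0.16 to 0.09 for complex I, -0.15 to 0.0025 for complex III, -0.20 to 0.04 for complex IV and -0.14 to 0.09 for complex V. The number fitted lower and the number lowest in mutant 3 were examined under other settings only after the data were seen, as was matching of symbols in lower case only, which left 79 tested members, 59 fitted lower and 58 lowest in mutant 3. Of 726 alternative values of the 49 named genes, 688 kept the sign of the main value and 0 passed. The value of ndufa4l2 turned positive in limma-voom (0.61) and under a replicate block (0.60). That replicate block called 0 genes, with 71 members fitted lower. Deviations of same-numbered libraries correlated at 0.0488, 0.0238 and 0.116 over all tested genes and at 0.485, 0.255 and -0.112 over the tested members, so not every pair deviated together, and no label says what a number shares. The signs of 22 named genes changed without some library, the log2 difference running for ndufs1 from -0.24 to 0.084, uqcrc1 from -0.14 to 0.013, uqcrc2b from -0.19 to 0.063, COX5B_(2_of_3) from -0.14 to 0.0201, cox6b2 from -0.23 to 0.084, cox4i1 from -0.19 to 0.10, ATP5B from -0.21 to 0.045, atp5a1 from -0.20 to 0.0103, atp5l from -0.29 to 0.013, cox5aa from -0.16 to 0.039, cox5ab from -0.23 to 0.016, cox6a1 from -0.16 to 0.068, cox6b1 from -0.077 to 0.23, cox7a2a from -0.044 to 0.22, cox8b from -0.0605 to 0.68, ndufa4l2 from -0.86 to 0.29, atp5g3a from -0.087 to 0.082, mafba from -0.12 to 0.14, kdrl from -0.22 to 0.13, cycsb from -0.28 to 0.017, mt-atp8 from -0.0403 to 0.48, mt-co1 from -0.26 to 0.0039. ATP5J2, with few reads, ran from -2.18 without mutant 3 to -0.52 without mutant 2, at most 2.11-fold away from its main value of -1.10. For these changes the cause was not tested. The order of the complexes per length, with its alternatives, was not run. Depth limits the members with few reads.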
